A study of Mus musculus with 2 samples.

Results

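Cartilage is built from fibrillar collagen and from a second set of proteins that fill, link and lubricate the collagen network. The genes described here are 9 of that second set, chosen by name from all 28380 genes in the tables: Acan, Hapln1, Matn1, Matn3, Comp, Chad, Snorc, Ucma and Prg4. All 9 were found in both libraries and all 9 passed the minimum of 20 unique molecular identifiers (UMIs, the tags that count captured RNA molecules) used for comparisons in chondrocytes. Single-cell RNA sequencing (scRNA-seq) had been run on non-haematopoietic cells of femur and tibia from C57BL/6 mice at postnatal day 30, after tamoxifen. The Control mice had the genotype Dach1OE +/f, which carries the Dach1 transgene in the Rosa26 locus without a Cre. The Dach1OE mice had the genotype Apj CreERT2 - Dach1OE +/f, in which a tamoxifen-inducible Cre driven by Aplnr (Apj), a gene of capillary endothelium, switches that transgene on. Each group was 1 library, made from cells of a pair of mice according to the methods and labelled male and female, so the values below have no replicate, and no test or p-value is given. Intervals are 95% intervals that cover counting error only.

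Acan encodes aggrecan, the large chondroitin sulphate proteoglycan that holds water in cartilage, and Hapln1 encodes the link protein that fastens aggrecan to hyaluronan. Matn1 and Matn3 encode matrilins, Comp encodes a pentameric thrombospondin and Chad encodes chondroadherin, all adaptors between collagen fibrils, proteoglycans and cells. Snorc encodes a small transmembrane chondroitin sulphate proteoglycan of chondrocytes and Ucma a small secreted Gla protein of immature chondrocytes. Prg4 encodes lubricin, the boundary lubricant of joint surfaces, which superficial articular chondrocytes and the synovial lining are known to make. In the growth plate, chondrocytes pass from a resting and proliferating state through a prehypertrophic state marked by Ihh to hypertrophy marked by Col10a1, before bone replaces the cartilage. The epiphysis, which bears the articular surface, had been detached before digestion.

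In the GENCODE vM21 annotation of GRCm38, the members of the proteoglycan complex lie at chr7:79053483-79115099 (Acan, + strand) and chr13:89539796-89611652 (Hapln1, + strand). The adaptor genes lie at chr4:130944385-130955475 (Matn1), chr12:8947929-8972028 (Matn3), chr8:70373558-70382066 (Comp) and chr11:94565047-94569127 (Chad), all on the + strand. Snorc lies at chr1:87470271-87475482 (+), Ucma at chr2:4976122-4985748 (+) and Prg4 at chr1:150449412-150466165 (-). Chad overlaps Acsf2 and Prg4 overlaps Tpr, each on the opposite strand, and Hapln1 overlaps the pseudogene Gm8546. Intronic reads were counted and the use of strand is not given in the sources used here, so reads of these partners could be shared. The RefSeq promoter table for GRCm38.p6 matched 6 of the 9 genes (Acan, Hapln1, Matn1, Matn3, Chad and Ucma). The 250 bases before the start of transcription are shown for 4 of them, all on the + strand, which shared 1 cell type. Matn1, Matn3 and Chad were shown because their levels differed over the chondrocyte stages as divided below. Ucma was itself used to define those stages, so its own course is not read as a difference. Capitals mark CG dinucleotides and the TATA motif TATAAA.
Matn1, chr4:130944135-130944384: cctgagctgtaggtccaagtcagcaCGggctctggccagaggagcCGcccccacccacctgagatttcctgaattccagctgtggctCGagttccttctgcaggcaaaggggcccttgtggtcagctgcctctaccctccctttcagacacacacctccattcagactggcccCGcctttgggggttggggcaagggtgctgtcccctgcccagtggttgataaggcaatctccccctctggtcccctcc
Matn3, chr12:8947679-8947928: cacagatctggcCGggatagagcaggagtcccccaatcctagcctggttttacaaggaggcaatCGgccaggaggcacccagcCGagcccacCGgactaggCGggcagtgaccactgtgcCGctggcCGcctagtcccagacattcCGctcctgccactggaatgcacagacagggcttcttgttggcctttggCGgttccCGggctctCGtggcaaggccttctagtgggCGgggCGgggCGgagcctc
Chad, chr11:94564797-94565046: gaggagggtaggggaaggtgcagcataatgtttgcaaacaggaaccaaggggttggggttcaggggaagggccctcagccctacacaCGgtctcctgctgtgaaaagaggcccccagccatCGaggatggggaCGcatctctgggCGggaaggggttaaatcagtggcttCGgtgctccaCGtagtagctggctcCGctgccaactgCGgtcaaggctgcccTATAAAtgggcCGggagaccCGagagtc
Ucma, chr2:4975872-4976121: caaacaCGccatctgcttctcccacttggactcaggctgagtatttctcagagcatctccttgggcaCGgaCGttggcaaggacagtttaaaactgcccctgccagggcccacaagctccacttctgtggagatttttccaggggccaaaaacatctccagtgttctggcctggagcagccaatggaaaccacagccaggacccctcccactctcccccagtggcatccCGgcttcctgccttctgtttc
The motif TATAAA, searched on both strands, was found in 1 of the 6 promoters, that of Chad, where it began 28 bases before the start. It was present in 12.4% of the 32851 promoters of the same length. The motifs ACAAAG and ACAATG, which SOX proteins are known to bind, were found on either strand in 0 of the 6 and in 25.2% of all promoters. The promoters held 26 CG dinucleotides in Acan, 14 in Matn3, 10 in Chad, 4 in Matn1, 4 in Ucma and 2 in Hapln1, against a median of 6 over all promoters. These matches describe letters in 1 window and carry no measurement of binding.

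Control held 28720 cells and 143986818 UMIs, and Dach1OE held 32028 cells and 166999989 UMIs. The filters (500 to 6000 genes and under 25% mitochondrial UMIs) kept 26466 and 29317 cells with medians of 3793.5 and 4055 UMIs. The libraries shared 1049 cell barcodes, 3.65% of those in Control. Scrublet, a doublet caller, marked 6.53% of kept cells in Control and 6.60% in Dach1OE. Dach1 stood at 5.25 counts per 1000000 UMIs of the class (CPM) in endothelial cells (ECs) of Control and 223 CPM in ECs of Dach1OE. In chondrocytes it stood at 2.48 and 6.25 CPM. No cell annotation was used, so a class name means a cluster like that cell type by its markers. Cluster 8 (1540 and 859 cells) had 8 endothelial markers past 1.5-fold but stayed unnamed under the naming rule. The EC values leave it out.

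Chondrocytes were 4270 of the Control cells (16.1%) and 5891 of the Dach1OE cells (20.1%). All 10 chondrocyte markers (among them Sox9, Col2a1 and Cnmd) were at 1.5 times or more their level in the other cells in both libraries, while 0 of the 8 fibroblast markers, 0 of the 8 endothelial markers and 0 of the 12 haematopoietic markers were. In both libraries, 3 of 8 osteoblast, 2 of 7 osteocyte, 2 of 5 Schwann cell, 1 of 7 tendon, 1 of 8 smooth muscle and 1 of 5 skeletal muscle markers were as well. For 8 of the 9 genes, chondrocytes held between 94.2% and 96.6% of all UMIs in a library. Matn1 was at the top of this range, with 96.6% in Control and 95.9% in Dach1OE, and Chad at the bottom, with 94.5% and 94.2%. Prg4 stood apart, since fibroblasts held 84.4% of its UMIs in Control and 84.7% in Dach1OE while chondrocytes held 7.70% and 9.09%. The plot of UMI sources shows this split for each gene. At a finer clustering (resolution 0.8 in place of 0.5), where a cluster with Col10a1 took the name osteocyte and 3 clusters with chondrocyte markers were set aside as doublet-like, 0 of the 9 genes had 90% of their UMIs in cells called chondrocytes. Scrublet had marked 82.1% to 89.2% of the cells in those 3 clusters.

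**Figure D1:**
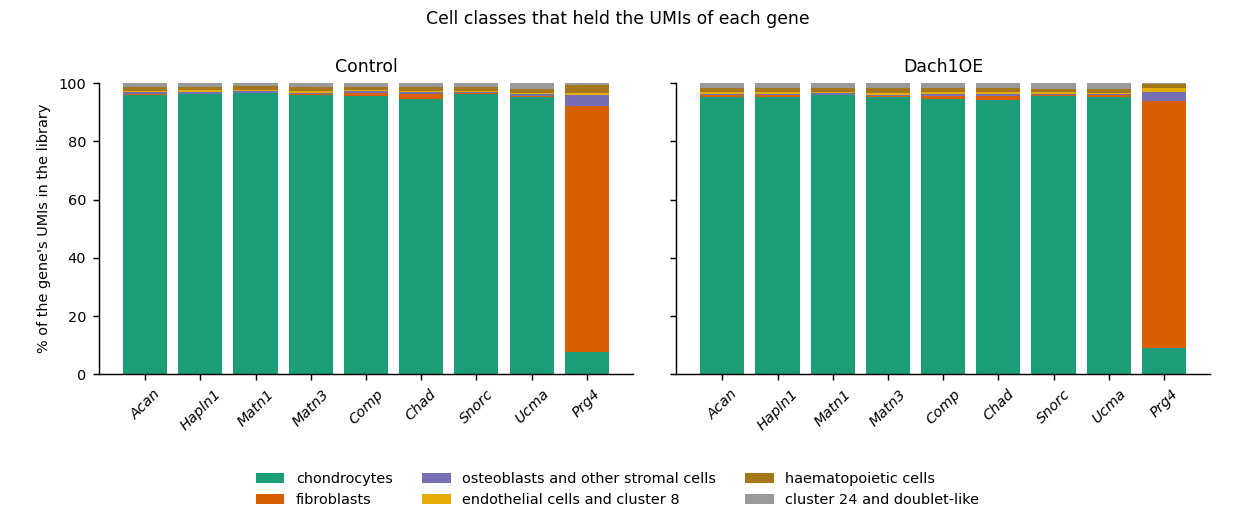
Share of each gene's UMIs (y axis, %) held by each group of cell classes in Control and Dach1OE. For 8 genes the chondrocyte bar covers at least 94.2% of the UMIs, and for Prg4 the fibroblast bar covers 84.4% and 84.7%.

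Chondrocytes carried these RNAs in nearly every cell for most of the genes. After each cell was thinned to 1000 UMIs, which left out 1 Control and 3 Dach1OE chondrocytes, 97.8% of Control and 97.3% of Dach1OE chondrocytes had an Acan UMI, and 97.2% and 97.6% had a Hapln1 UMI. The thinned shares were 94.0% and 92.0% for Comp, 91.8% and 91.7% for Matn3, and 86.6% and 82.8% for Chad. Matn1, a gene of lower UMI counts, was seen in 49.8% and 51.5% of thinned chondrocytes, against 81.1% of unthinned Control cells. Haematopoietic cells, which should lack these genes, still had an Acan UMI in 6.82% and 8.30% of thinned cells, at median depths of 4916 and 4880 UMIs against 10527 and 9935 in chondrocytes. The Prg4 share in chondrocytes (1.19% and 0.968%) lay beside that in haematopoietic cells (0.864% and 0.750%) and in ECs (0.613% and 0.986%). So small a share cannot by itself be told from that in cells that should lack the gene, and the cells with many Prg4 UMIs are described separately.

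RNA that is free in the suspension carries the genes of its source in the ratio of that source, so the UMIs of each gene were set against those of Col2a1, the main cartilage collagen, in the same class. In haematopoietic cells the ratio of each of the 8 genes other than Prg4 to Col2a1 lay within 0.24 on the log2 scale of the ratio in chondrocytes of the same library. Col2a1 itself stood at 1953 and 2279 CPM there, against 78555 and 80589 CPM in chondrocytes. In ECs the 8 genes lay between -0.55 and -0.040. Comp and Chad departed from this balance in fibroblasts, where they were 1.33 and 2.13 above the chondrocyte ratio in Control and 1.78 and 2.27 above it in Dach1OE. Matn1 was below it there, by -1.13 (-1.41 to -0.87) in Control and -0.30 in Dach1OE, and Hapln1 was at -0.42 and 0.17 and Acan at -0.17 and 0.46. Comp was also above it in marrow stromal cells, by 0.51 and 0.87, and in metaphyseal stromal cells, by 0.46 and 0.65. Acan was above it in metaphyseal stromal cells by 0.38 in each library and Chad by 0.16 and 0.60, and Snorc and Ucma were below it, Snorc by -0.70 and -0.52. Osteoblasts were below it for all 8 genes, from -0.67 for Chad in Dach1OE to -2.52 for Matn1 in Control.

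**Figure D2:**
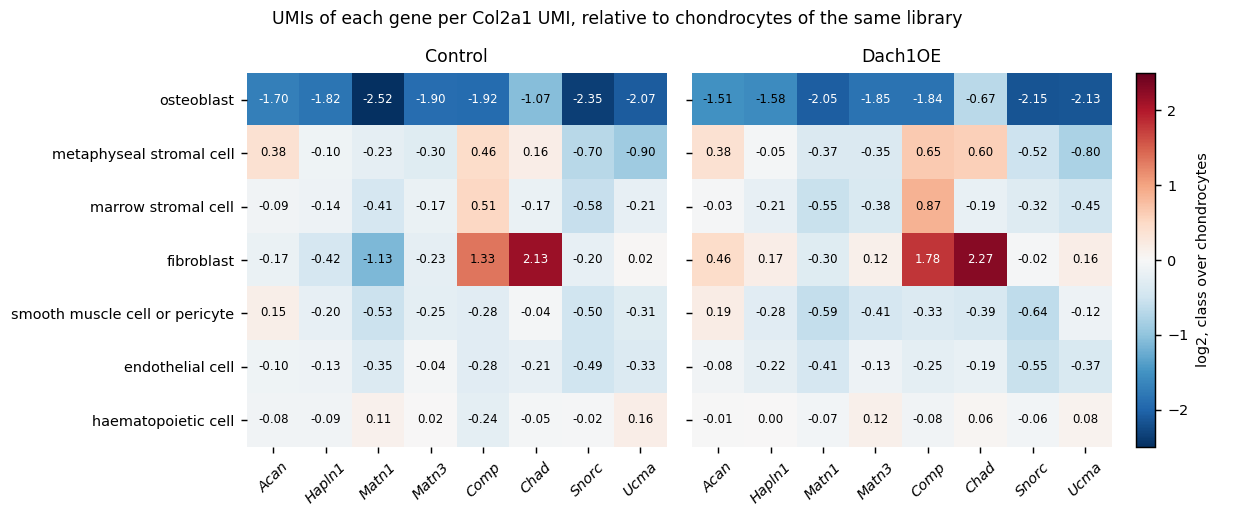
Log2 of each gene's UMIs per Col2a1 UMI in 7 cell classes (rows), relative to chondrocytes of the same library, for 8 genes (columns) in Control and Dach1OE. Haematopoietic cells sit near 0, osteoblasts below 0, and Comp and Chad in fibroblasts stand out at 1.33 to 2.27.

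The fibroblast class held 949 and 893 cells, and 8 of 8 fibroblast markers, 6 and 7 of 7 tendon markers and 5 of 5 synovial lining markers were at 1.5 times or more their level elsewhere. The finer clustering set tendon cells apart from fibroblasts, and its 2 groups together took in cells beyond this class. Its cells with tendon markers (321 and 187 cells) held Chad at 1659 and 2869 CPM. Its fibroblasts (757 and 794 cells) held Chad at 252 and 173 CPM. Comp followed the same division, with 933 and 1984 CPM in tendon cells and 415 and 409 CPM in fibroblasts. Prg4 went the other way, with 1721 and 1633 CPM in tendon cells and 7345 and 8168 CPM in fibroblasts. These cells were few and the Prg4 RNA was concentrated in some of them, since 22.0% and 17.7% of the fibroblast class had 10 or more Prg4 UMIs and the top 10% of cells held 87.3% and 93.2% of its UMIs.

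Chondrocytes were then divided into stages by UMIs in the cell, in this order: hypertrophic with at least 10 Col10a1 UMIs, prehypertrophic with at least 2 Ihh UMIs, upper with at least 10 Ucma UMIs, and remaining. The stages held 1000, 1022, 1166 and 1082 cells in Control and 1430, 1137, 2028 and 1296 in Dach1OE. Median depth ran from 7422.5 and 6863 UMIs in remaining cells and 9699.5 and 9305 in upper cells to 12942 and 12379 in prehypertrophic and 12387.5 and 11467.5 in hypertrophic cells. Of all chondrocytes, 28.6% and 29.1% passed more than 1 gate, and 48.4% and 48.3% had 5 to 19 Ucma UMIs, near that gate. Marker sums of other cell types differed too. From upper to hypertrophic cells, metaphyseal stromal markers went from 140 and 137 to 1030 and 1095 CPM. In Control, most of the hypertrophic sum was Mmp13, 1 of these markers, whose level is given below with the proteases. Osteoblast markers went from 4603 and 3851 to 8070 and 9328 CPM, and osteocyte markers from 60.1 and 56.1 to 258 and 327 CPM. Tendon markers went the other way (3757 and 3830 to 2022 and 1905 CPM), as did marrow stromal, endothelial, Schwann cell, skeletal muscle and chondrocyte markers. Over all chondrocytes, Fmod made most of the tendon sum in both libraries. The part of depth and of these marker sums in the stage differences was not tested.

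Hapln1, Comp, Chad and Matn1 were higher in prehypertrophic and hypertrophic than in upper chondrocytes of both libraries, whereas Acan differed less and Matn3 ran level and then lower. The hypertrophic part of this held with the gates in the order given. With cells past more than 1 gate left out, Hapln1 turned to -0.50 and -0.36, Comp to -0.27 in Control and Matn1 to -0.14 in Dach1OE. The prehypertrophic part was not recomputed under other gates. Because the median gene differed between hypertrophic and upper cells by -0.18 in Control and -0.17 in Dach1OE on the log2 scale, stage differences are given relative to that median. Past 1.5-fold, 5 of the 9 genes were higher in hypertrophic than in upper cells in each library, against 15.9% of 13872 genes in Control and 16.6% of 14516 genes in Dach1OE. The 5 were Hapln1, Matn1, Comp, Chad and Snorc. Leaving out Ucma, whose gate defined the upper cells, 0 genes in Control and 1 in Dach1OE were lower, against 15% and 16% of all genes. That gene was Prg4 (3.84 and 38.3 CPM), for which 1 upper cell held 436 of the 752 UMIs of its stage.

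Acan, the proteoglycan, stood in Control at 7760 CPM (7709 to 7810) in upper, 8224 in remaining, 9008 in prehypertrophic and 8570 (8518 to 8622) in hypertrophic cells. In Dach1OE the same stages read 6716, 7048, 7433 and 7517 CPM. Its hypertrophic level was above the upper level by 0.33 relative to the median in each library. Hapln1, its link protein, differed more along the stages, from 7404 CPM (7355 to 7454) in upper cells to 11102 in prehypertrophic and 12117 (12056 to 12179) in hypertrophic cells of Control. In Dach1OE it went from 7593 to 10963 and 11389 CPM. The difference between hypertrophic and upper cells was 0.89 in Control and 0.75 in Dach1OE. Aggrecan and its link protein, which act in 1 complex, thus did not keep 1 ratio of RNA over these stages.

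With the gates in this order, the matrilins differed in how they ran along the stages. Matn1 was at 859 CPM (842 to 876) in upper, 1003 in remaining, 1462 in prehypertrophic and 1636 (1613 to 1658) in hypertrophic cells of Control, a difference of 1.11 between the ends. In Dach1OE it was at 1012, 1178, 1481 and 1493 CPM, with a difference of 0.73. Matn3 was at 4735 (4696 to 4775), 3928, 4623 and 3853 (3819 to 3888) CPM in Control and at 5194, 4094, 4803 and 3580 CPM in Dach1OE. Its hypertrophic level lay below the upper level by 0.12 in Control and 0.37 in Dach1OE, neither past 1.5-fold with these gates. With cells past more than 1 gate left out, the difference for Matn1 was 0.027 in Control and -0.14 in Dach1OE. Chondrocyte cluster 15, the cluster led by Col10a1 (439 and 773 cells), held Matn3 at 2112 and 2100 CPM.

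Comp, the thrombospondin of cartilage and tendon, stood at 3895 CPM (3859 to 3931) in upper and 6572 (6529 to 6616) in prehypertrophic cells of Control, and at 3363 and 5574 CPM in Dach1OE. In hypertrophic cells it was at 6266 and 5544 CPM. Chad, which binds integrins, went from 2851 CPM (2820 to 2882) in upper to 4298 in prehypertrophic and 4515 in hypertrophic cells of Control, and from 2255 to 3814 and 4394 CPM in Dach1OE. The hypertrophic over upper difference was 0.87 and 0.89 for Comp and 0.85 and 1.13 for Chad. Snorc had a smaller difference in the same direction, 0.63 and 0.59, on levels of 3845 and 3597 CPM in upper and 5231 and 4820 CPM in hypertrophic cells.

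Ucma chose the upper stage, so its levels are given with no comparison read from them: 2023 and 2288 CPM in upper, 571 and 642 in remaining, 708 and 878 in prehypertrophic, and 459 and 481 in hypertrophic cells. Between prehypertrophic and upper cells, 4 of 9 genes were past 1.5-fold higher in each library (8.56% of all genes in Control and 9.18% in Dach1OE). Leaving out Ucma, 1 gene was lower in each library, Prg4, on few cells (12.6% and 12.4% of all genes). The higher genes were Hapln1 (0.71 and 0.65), Matn1 (0.89 and 0.67), Comp (0.88 and 0.85) and Chad (0.72 and 0.87).

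**Figure D3:**
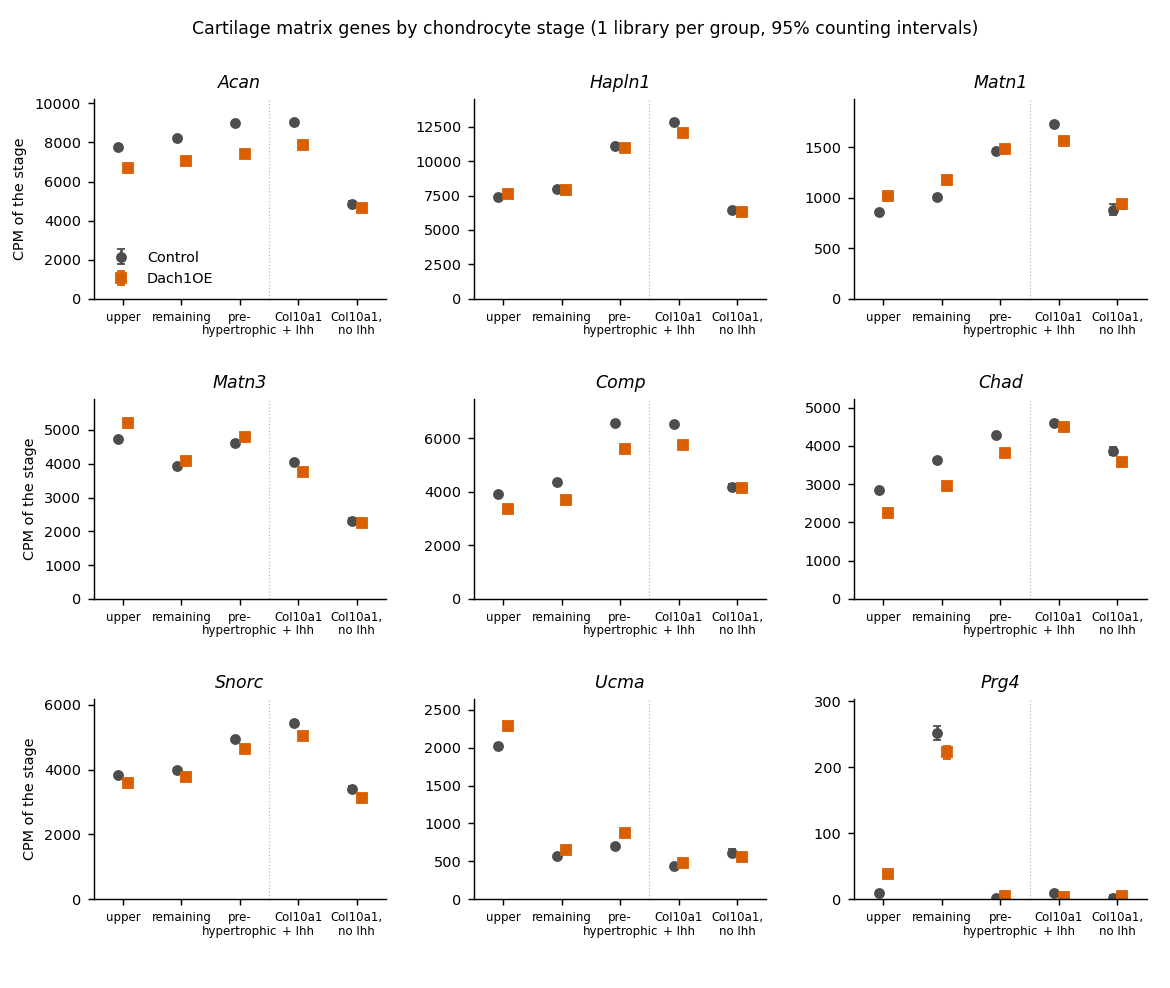
CPM (y axis, from 0) of the 9 genes in upper, remaining and prehypertrophic chondrocytes and, right of the dotted line, in hypertrophic cells with at least 2 Ihh UMIs and with fewer (labelled no Ihh), for Control (circles) and Dach1OE (squares). Bars are 95% counting intervals, mostly smaller than the marker. Hapln1 stands at 12804 and 12019 CPM in cells with Col10a1 and Ihh and at 6478 and 6342 CPM in those without Ihh.

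The hypertrophic values depended on how cells past more than 1 gate were placed. With the Ihh gate ahead of the Col10a1 gate, 0 genes in Control and 1 in Dach1OE were higher past 1.5-fold in hypertrophic than in upper cells, and with cells past more than 1 gate left out the number was 0 in both. Under either placement Acan, Hapln1 and Snorc stood below their upper level in both libraries. With cells past more than 1 gate left out, Acan differed by -0.93 and -0.52. Matn3 was then lower past 1.5-fold, by -1.68 and -1.59, as it was with the Ihh gate ahead (-1.05 and -1.19). Chondrocyte cluster 11, led by the immediate early genes Atf3, Egr2 and Fosb, held 1089 and 857 cells, and without it the number was 3 in both, with Matn3 lower past 1.5-fold (-0.70 and -0.74). The share of all genes past 1.5-fold was not counted under these placements or without cluster 11. These numbers of members thus have no share to be set against. Most cells with 10 or more Col10a1 UMIs also passed the Ihh gate, 814 of 1000 in Control and 1177 of 1430 in Dach1OE. A division of these cells by Ihh was therefore added after their values were seen, in which cells called without Ihh are those below the gate of 2 Ihh UMIs and can hold 1.

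In hypertrophic chondrocytes without Ihh, aggrecan, its link protein, both matrilins, Comp and Snorc were lower than in hypertrophic cells that had Ihh, whereas Chad was not past 1.5-fold. The cells without Ihh numbered 186 and 253. Acan was at 9021 CPM (8964 to 9077) with Ihh and 4869 (4751 to 4988) without in Control, and at 7872 and 4673 CPM in Dach1OE. Hapln1 was at 12804 with and 6478 without in Control and at 12019 and 6342 CPM in Dach1OE. Relative to the median gene, which differed by 0.23 and 0.19, the cells without Ihh were lower by -1.12 and -0.94 for Acan and by -1.21 and -1.11 for Hapln1. The same differences were -1.20 and -0.92 for Matn1, -1.04 and -0.93 for Matn3, -0.87 and -0.66 for Comp, and -0.91 and -0.87 for Snorc. Chad differed by -0.48 and -0.51 and Ucma by 0.25 and 0.037.

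In all, 7 of 9 genes in Control and 6 of 9 in Dach1OE were lower past 1.5-fold in the cells without Ihh (16.1% of 12117 genes and 14.5% of 12643 genes, with 19.1% and 19.3% higher), the seventh being Prg4 on 3 UMIs. Depth moved with this division, with median UMIs of 6582 and 7320 without Ihh against 13226 and 12409 with it. Membership of cluster 11 moved with it as well, since that cluster held 470 and 476 of the cells with Ihh and 23 and 15 of those without. Median Col10a1 UMIs were 102.5 and 187 without Ihh, against 257.5 and 327 with it. Cluster 15, led by Col10a1, held 99 and 152 of the cells without Ihh and 232 and 482 of those with it. The part of these differences in the lower levels was not tested. The leading genes of cluster 11 include Foxa3 and Nog beside the immediate early genes. No immediate early gene was itself compared between the cells with and without Ihh. Among cells with 8000 or more UMIs (76 and 106 without Ihh, 717 and 986 with it) the difference was -1.04 and -0.91 for Acan, -1.03 and -0.92 for Hapln1, -1.09 and -0.87 for Matn1 and -0.77 and -0.69 for Matn3. In these deeper cells Comp differed by -0.71 and -0.38, the latter not past 1.5-fold, and Ucma was higher by 0.62 and 0.26.

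Cycling chondrocytes, with 5 or more UMIs over 8 mitotic genes, had more Matn3 and Ucma and less of the other members than the rest over all stages. For Snorc this did not hold within upper or within remaining cells. Matn3 was at 4946 CPM in cycling and 4216 in other chondrocytes of Control and at 5345 and 4305 CPM in Dach1OE, a difference of 0.23 and 0.29. Matn1, at 780 and 1357 CPM in Control and 947 and 1353 in Dach1OE, was lower by -0.80 and -0.54. Chad was lower by -0.54 and -0.65, Comp by -0.48 and -0.53, Hapln1 by -0.50 and -0.51 and Acan by -0.31 and -0.34. Past 1.5-fold, 2 genes in Control (Matn1 and Prg4) and 2 in Dach1OE (Chad and Prg4) were lower, against 13.8% and 13% of all genes, while 0 were higher in Control (background 14.2%) and Ucma was higher in Dach1OE (0.60, background 13.6%). Within upper cells alone, Matn3 differed by 0.26 and 0.25, Matn1 by -0.43 and -0.24 and Hapln1 by -0.16 and -0.19, while Snorc turned to 0.14 and 0.11. Within remaining cells, Matn3 differed by 0.42 and 0.31, Matn1 by -0.39 and -0.19 and Chad by -0.46 and -0.25, and Snorc was again not lower (0.063 and 0.12). Ucma was at -0.12 and -0.084 in upper and 0.14 and -0.028 in remaining cells. Its own gate bounds both stages, so nothing is read from these values.

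In chondrocytes, 0 of the 9 genes differed by more than 1.5-fold between Dach1OE and Control, against 11.2% of 17502 genes (3.05% higher and 8.17% lower in Dach1OE). The median of the 9 log2 ratios relative to the median gene was -0.031. Acan was at 8431 CPM (8404 to 8457) in Control and 7162 (7140 to 7183) in Dach1OE, and Comp was at 5412 (5391 to 5434) and 4549 (4532 to 4566). Their relative ratios were -0.21 (-0.22 to -0.20) and -0.23 (-0.23 to -0.22). Chad was at 3869 and 3331 CPM, with a ratio of -0.19 (-0.20 to -0.18), and Snorc at 4574 and 4214, with -0.094 (-0.10 to -0.086).

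Hapln1 was at 9883 and 9512 CPM (-0.031), Matn1 at 1274 and 1284 (0.035), Matn3 at 4321 and 4483 (0.077) and Prg4 at 49.6 and 48.3 (-0.015). The value of Prg4 rests on few cells, kept its sign in 7 of 15 settings and ran from -1.31 in cells with Y-linked UMIs to 2.23 in cells with Xist UMIs. Ucma was the member with the largest ratio, at 954 CPM (945 to 963) in Control and 1197 (1188 to 1206) in Dach1OE, or 0.35 (0.33 to 0.37), which placed it at percentile 92.9 of all genes. The lower Acan, Comp, Chad and Snorc and the higher Ucma kept their sign in 15 of 15 alternative settings, with ratios from -0.30 to -0.14 for Acan, from -0.31 to -0.11 for Comp, from -0.32 to -0.038 for Chad and from 0.21 to 0.46 for Ucma. With no replicate library, whether these ratios are larger than the spread between mice cannot be told.

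Within the stages, 0 of 9 genes were past 1.5-fold in remaining cells (background 10%). Acan was lower in Dach1OE in 4 of 4, by -0.17 to -0.27, and Comp in 4 of 4, by -0.16 to -0.24. Chad was lower by -0.32 in upper and -0.29 in remaining cells and by -0.025 in hypertrophic cells. Matn1 was higher by 0.26 (0.22 to 0.29) in upper and 0.24 (0.20 to 0.28) in remaining cells, at 0.025 in prehypertrophic cells and at -0.12 (-0.14 to -0.090) in hypertrophic cells. Prg4 was past 1.5-fold in 3 stages on few UMIs: 115 and 752 UMIs in upper cells, 30 and 60 in prehypertrophic cells and 104 and 64 in hypertrophic cells. In upper cells of Dach1OE, 1 cell held 436 of these UMIs and 4 cells had 10 or more. That made 1 of 9 genes past 1.5-fold in each of these stages, against 10.7%, 11.5% and 10.8% of all genes. The upper stage, defined by 10 or more Ucma UMIs, was 27.3% of Control and 34.4% of Dach1OE chondrocytes. That share is not separate from the higher Ucma level, and Ucma ratios within upper and remaining cells are bounded by the gate.

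**Figure D4:**
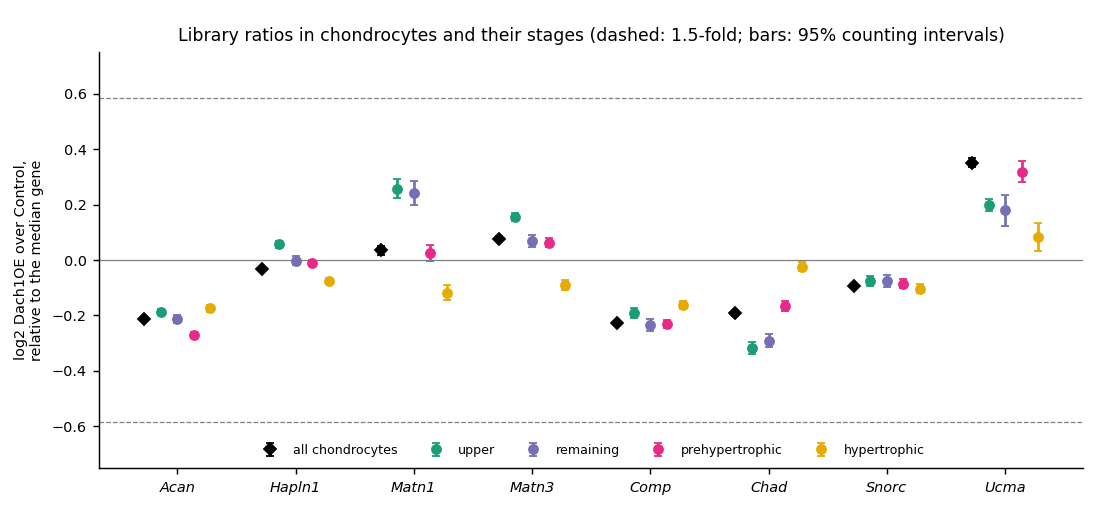
Log2 ratio of Dach1OE over Control relative to the median gene (y axis) for 8 genes in all chondrocytes (black diamonds) and in each stage (coloured circles), with 95% counting intervals. No point passes the dashed lines at 1.5-fold, Acan and Comp lie below 0 in every stage, and Matn1 runs from 0.26 in upper cells to -0.12 in hypertrophic cells. The Ucma points of the upper and remaining stages are bounded by the Ucma gate.

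Cells could be assigned to a sex by their UMIs in part, and each sex gave a comparison of its own. Among chondrocytes with Xist and no Y-linked UMIs (2039 and 2082 cells), Acan was at 8483 and 7278 CPM. Among those with Y-linked UMIs and no Xist (1190 and 2151 cells) it was at 8777 and 7309 CPM, so it was lower in Dach1OE in both sexes. Comp was at 5524 and 4680 CPM in the former and 5523 and 4667 CPM in the latter. In upper cells, Matn1 was at 886 and 1045 CPM with Xist and 837 and 1067 CPM with Y-linked UMIs. Chad had a log2 ratio of -0.035 (-0.049 to -0.021) with Xist and -0.35 (-0.36 to -0.33) with Y-linked UMIs, and the difference between these was not tested. Mouse and sex cannot be told apart in these pools.

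The collagens and enzymes that act with these genes were counted between the libraries as well, from lists chosen with results of these data known, against the 3.05% of all genes higher and 8.17% lower given above. Of 8 cartilage collagens, 0 were past 1.5-fold in chondrocytes, with Col2a1 at 78555 and 80589 CPM (0.060) and Col10a1, the collagen of hypertrophy, at 8640 and 11085 CPM (0.38). Of 21 measured genes of chondroitin sulphate synthesis, which make the chains that aggrecan carries, 1 was higher (Chst13, on 15 and 43 UMIs) and 0 were lower. Of 13 proteases and inhibitors, Mmp9, a gelatinase known from osteoclasts, was higher (7.79 and 37.4 CPM, 2.29) and Adamts5, an aggrecanase, was lower (28.6 and 16.0 CPM, -0.81). Of 10 paralogs of the members that passed the minimum, 2 were lower (Hapln3, -0.75, and Thbs4, -0.65). Of 12 other matrix genes, 1 was lower (Cilp, -0.87), and of 10 regulators 0 were past 1.5-fold, with Sox9 at 1501 and 1328 CPM (-0.15).

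The same lists were counted between hypertrophic and upper cells, where 15.9% and 16.6% of all genes were higher and 15% and 16% lower. Of the 8 collagens, 1 was higher past 1.5-fold in hypertrophic than in upper cells of either library, Col10a1, which defined the stage. Col2a1 differed by 0.062 and 0.030 and Col9a1, of the collagen on the fibril surface, by 0.067 and -0.0049. Among 9 regulators that passed, 5 were higher in each library: Runx2 (0.75 and 0.82), Mef2c (2.32 and 2.33), Trps1, Foxa2 (2.70 and 2.48) and Foxa3 (2.96 and 2.61). Sox5 and Runx3 were lower. Of the 13 proteases and inhibitors, 6 in Control and 7 in Dach1OE were higher, and 3 in each library were lower. The higher genes included the collagenase Mmp13 (929 and 36.2 CPM in hypertrophic and upper cells of Control) and the inhibitor Timp3 (512 and 115 CPM). Of 10 paralogs that passed, 2 in Control and 3 in Dach1OE were higher, and 2 and 4 were lower. Among the genes of chondroitin sulphate synthesis, 2 and 1 were higher and 5 and 4 were lower. Chsy1, a chain polymerase, was at 191 CPM in hypertrophic and 69.1 in upper cells of Control, and Slc26a2, the sulphate transporter, at 336 and 960 CPM. Of 11 other matrix genes that passed, 1 in each library was higher, and 3 in Control and 4 in Dach1OE were lower. Fmod and Prelp, small leucine-rich proteoglycans, were lower, Prelp at 818 and 3769 CPM in Control. The list counts used the gates in the order given and were not repeated under other placements.

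The members also differed in how their RNA was spread over cells. The median chondrocyte held 81 Acan UMIs in Control and 67 in Dach1OE, and 90 and 81 Hapln1 UMIs. It held 7 Matn1 UMIs in both libraries, and the top 10% of cells held 39.2% and 37.9% of all Matn1 UMIs. For Acan the top 10% of cells held 23.7% and 23.6%, and for Snorc 22.5% and 22.8%. Across cells thinned to 4000 UMIs (3827 and 5355 chondrocytes), the Pearson correlation of Acan with Hapln1 was 0.62 and 0.55, and that of Hapln1 with Snorc was 0.59 and 0.59. Comp with Chad gave 0.43 and 0.41, whereas Acan with Chad gave 0.056 and 0.073. Matn1 with Ucma gave -0.25 and -0.20 and Matn3 with Ucma 0.26 and 0.38. Within hypertrophic cells (916 and 1336), Hapln1 with Matn3 gave 0.78 and 0.73. These values describe cells of 1 library each, which share their depth and their mice.

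Over 26 profiles of classes and stages in both libraries, the gene outside the group whose log2 CPM ran most like that of Acan was Col9a1 (Pearson r 0.997), and for Matn3 it was Col9a3 (0.999), out of 6854 genes. Both encode chains of collagen IX, which lies on the surface of cartilage fibrils. Fxyd2, a regulator of the sodium pump, was nearest to Hapln1 (0.998) and to Matn1 (0.996). Comp and Chad shared the same nearest gene, Fam180a (0.990 for each), and then Rtl3 and Nrk. Snorc was nearest to Col9a1 (0.998), Ucma to Meltf (0.986) and Prg4 to Cilp (0.942), which encodes a protein of the cartilage intermediate layer. Prg4 correlated with the other 8 members by -0.0035 to 0.21. The profiles of the 2 libraries and of stages within a class are not independent, and the order of close values was not tested. The gate on Ucma set part of its own pattern over the stages. Col9a1 and Col9a3 were also among the markers that named chondrocytes. The part of the difference between chondrocytes and other classes in these correlations was not tested.

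Prg4 in chondrocytes came from a few cells. Cells with 10 or more Prg4 UMIs, a division chosen after the values were seen, were 27 of 4270 chondrocytes in Control and 32 of 5891 in Dach1OE (0.632% and 0.543%), and they held 91.2% and 90.7% of the Prg4 UMIs of all chondrocytes. They lay mostly in the remaining stage (22 and 27 cells), and 19 and 26 of them fell in 1 cluster at the finer resolution, led by Sfrp5 and Chil1 and with Cilp2 among its top 10 genes. Scrublet marked 5 and 3 of them. Their median depth was 5628 and 3660 UMIs, against 10564 and 9963 in the other chondrocytes.

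Selected by Prg4, these cells held it at 12194 and 17112 CPM, a level from which nothing is read. They also held the cartilage genes, with Col2a1 at 61810 and 52894 CPM and 26 and 24 cells with 10 or more Col2a1 UMIs. Acan was at 3711 CPM (3425 to 4014) in Control and 3002 CPM in Dach1OE, against 8448 and 7172 CPM in the other chondrocytes. Matn3 was at 1432 and 1051 CPM against 4332 and 4492 CPM. Chad was at 7827 CPM (7409 to 8262) in Control, above the 3854 CPM of the other chondrocytes, and at 3501 against 3331 CPM in Dach1OE. Cilp was at 907 and 690 CPM, against 5.77 and 3.15 CPM.

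Markers of several stromal cell types were higher in these cells than in the other chondrocytes, and their part in the result was not tested. The 8 fibroblast markers summed to 2398 and 2424 CPM in them, against 249 and 274 CPM in other chondrocytes and 10836 and 10742 CPM in fibroblasts, with 1 and 2 markers at 0. Most of that sum was Dcn (1521 and 1557 CPM) and Gsn (430 and 447 CPM), while Pi16 was at 0 in both libraries and Mfap5 at 0 in Dach1OE. The 5 synovial lining markers summed to 95.5 and 282 CPM, against 18.0 and 17.9 CPM in other chondrocytes and 893 and 1193 CPM in fibroblasts, with 0 at 0. Their UMIs in Control were 6 of Cd55, 5 of Htra4, 3 of Tspan15 and 1 each of Has1 and Clic5. In Dach1OE they were 23 of Htra4, 10 of Clic5, 4 of Tspan15 and 3 each of Cd55 and Has1. The 7 tendon markers summed to 4552 and 6044 CPM, against 3008 and 3064 CPM in other chondrocytes. Most of that was Fmod (4045 and 5531 CPM). The 8 osteoblast markers summed to 21924 and 34330 CPM, against 6048 and 6656 CPM in other chondrocytes, and the 8 metaphyseal stromal markers to 2052 and 1977 CPM, against 445 and 460 CPM. Marrow stromal markers differed in Control (2374 and 464 CPM) more than in Dach1OE (269 and 253 CPM), and osteocyte markers in Dach1OE (1038 and 142 CPM) more than in Control (203 and 123 CPM). Col1a1, the collagen of bone, tendon and skin, was at 14801 and 32044 CPM, against 2180 and 2874 CPM. It is 1 of the 8 osteoblast markers and made most of their sum. Without Col1a1, that sum was higher than in other chondrocytes in Control and lower in Dach1OE. The part of doublets and of free RNA in these cells was not tested.

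**Figure D5:**
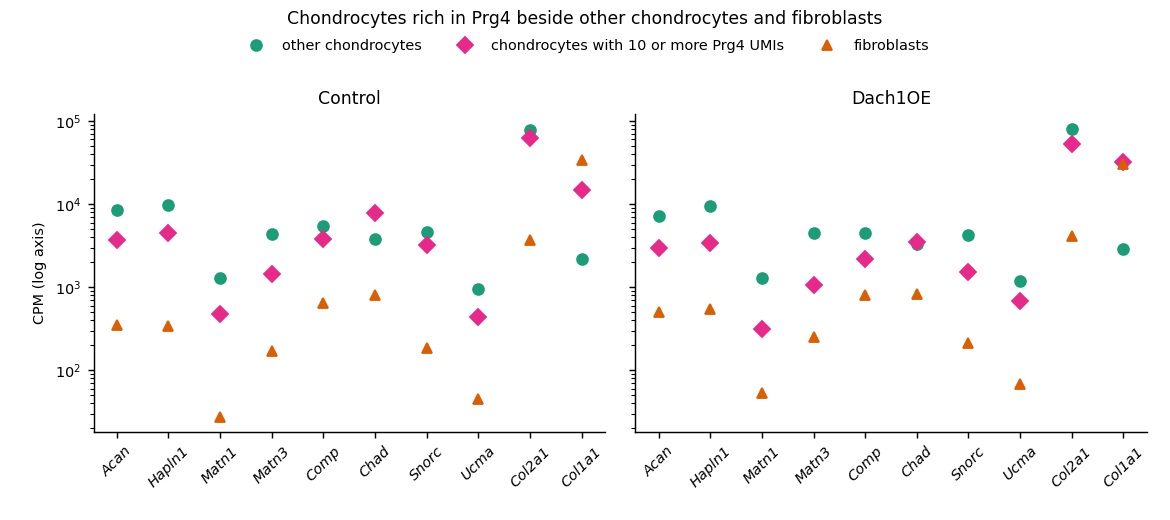
CPM (y axis, log scale) of 8 members, Col2a1 and Col1a1 in chondrocytes with 10 or more Prg4 UMIs (diamonds), other chondrocytes (circles) and fibroblasts (triangles) of each library. The diamonds lie near the circles for Col2a1 (61810 and 52894 CPM) and between the circles and triangles or at the triangles for Col1a1 (14801 and 32044 CPM), and below the circles for Acan, Hapln1, Matn1 and Matn3.

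In fibroblasts, 3 of the 9 genes were past 1.5-fold higher in Dach1OE and 0 were lower, against 5.39% and 7% of 12280 genes. Hapln1 was at 346 and 550 CPM (0.66), Matn1 at 27.3 and 53.4 CPM (0.96, on 117 and 208 UMIs) and Ucma at 45.5 and 68.8 CPM (0.59, on 195 and 268 UMIs). In cells with Xist UMIs and in cells with Y-linked UMIs, the log2 ratio, here not set against the median gene, was 0.34 and 2.12 for Hapln1, 1.06 and 3.69 for Matn1 and -0.24 and 1.08 for Ucma, so only Matn1 was past 1.5-fold higher in both. The finer clustering set tendon cells (321 and 187 cells) apart from fibroblasts (757 and 794 cells), though together they took in cells beyond this class. Relative to the median gene, the ratio in tendon cells of the finer clustering was 1.21 for Acan, 1.12 for Comp, 0.82 for Chad and -0.96 for Ucma (78 and 22 UMIs). In the fibroblasts of that clustering it was 0.30 for Acan, 0.0017 for Comp, -0.52 for Chad and 0.91 for Ucma. Hapln1 (0.64 in tendon cells and 0.60 in fibroblasts) and Matn1 (2.04, on 19 and 43 UMIs, and 0.66) were past 1.5-fold higher in both. Among all genes these ratios lay at percentiles 90.6 and 94.8 for Hapln1 and 99.7 and 95.5 for Matn1. No share of all genes past 1.5-fold is given for these finer clusters or for the cells of each sex. These UMIs lay in few cells, since 14 and 21 fibroblasts had 10 or more Hapln1 UMIs and the top 10% of cells held 90.5% and 91.3% of them. Col2a1 in fibroblasts was at 3692 and 4141 CPM, and its part in these ratios was not tested. Prg4, in the class that held most of it, was at 5735 CPM (24559 UMIs) and 6866 CPM (26742 UMIs), a ratio of 0.26 (0.23 to 0.28). Its log2 ratio, not set against the median gene, was 0.49 (0.45 to 0.53) in cells with Xist UMIs and -0.35 (-0.41 to -0.29) in cells with Y-linked UMIs.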

How the data were processed

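Per the file headers, the deposited counts came from BD Rhapsody's WTA pipeline, version 1.11, run by the authors on GRCm38 with GENCODE vM19, counting intronic reads. The methods name another version. The values are counts of UMIs per cell and gene, corrected for sequencing errors (RSEC) and not normalized. Cells with 500 to 6000 genes and under 25% mitochondrial UMIs were kept. Counts were log-normalized, and 2000 variable genes without cell cycle genes and without the listed genes gave 30 components and clusters at resolution 0.5 (Seurat 5.3.0, R 4.3.3). No integration was used. A cluster was given the type with most markers past 1.5-fold and detected in 25% or more of cells, if 3 or more passed, a rule settled in part after clusters were seen. It stayed unnamed on a tie, or where another type had more markers among its top 10 genes. A shallow cluster with no marker of its type among those genes stayed unnamed too. Clusters with over 50% of cells marked by Scrublet (scanpy 1.11.5) were set aside as doublet-like, and other doublets stayed.

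For each library and class, summed UMIs were given as CPM with exact Poisson intervals. Log2 ratios have exact conditional binomial intervals and shares exact Clopper-Pearson intervals, all at 95%. No test was run, since each group is 1 library. Ratios are relative to the median gene of at least 20 UMIs. The calculation was checked on simulated data. edgeR 4.0.16 gave TMM factors only. The members, lists and comparisons were chosen with earlier results of these data known. Members were named by role, lists in full count, and neighbours by the highest correlation of log2(CPM + 10).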

Additional observations from a re-analysis of the deposited data

Results flagged for a closer look

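In 3 places the ratio in cells of 1 sex ran opposite to that in the other with both counting intervals beyond 0, and the difference between the sexes was not tested. Mouse and sex cannot be told apart in these pools.

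In chondrocytes, the log2 ratio of Prg4, Dach1OE over Control, was 2.24 (2.08 to 2.40) in cells with Xist UMIs only, on levels of 18.2 and 85.8 CPM. It was -1.34 (-1.53 to -1.15) in cells with Y-linked UMIs only, on 40.8 and 16.1 CPM. In fibroblasts, Prg4 gave 0.49 (5718 and 8048 CPM) and -0.35 (5936 and 4664 CPM) in the same order. Snorc in fibroblasts gave -0.30 on 350 and 229 UMIs and 1.56 on 73 and 233 UMIs. In fibroblasts the signs were also opposite for Matn3 (-0.24 and 1.79), Ucma (-0.24 and 1.08) and Chad (-0.13 and 0.17), with 1 interval of each pair reaching 0.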

How the results depend on the processing

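No paired analysis was possible because each group is 1 library with no shared replicate numbers, and no library could be left out. The number of the 9 genes past 1.5-fold between libraries in chondrocytes went from 0 to 1 with cells of 10 or more Col2a1 UMIs in any class, with Xist cells and with Y-linked cells. Genes past 1.5-fold went from 1964 to 5630 with 1 UMI in each library as the minimum and to 542 with 100 UMIs. By stage, the number went from 1 to 0 in hypertrophic cells with gates of 5, 1 and 5 UMIs and with gates per 10000 UMIs, in upper cells with gates of 20, 4 and 20 UMIs, and in prehypertrophic cells with the Ihh gate ahead and without chondrocyte cluster 11 (added after seeing the data). For these changes in the number of members, no share of all genes was counted.

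The 5 genes higher in hypertrophic than in upper cells of each library became 0 in Control and 1 in Dach1OE with the Ihh gate ahead, where Hapln1 stood at -0.20 and -0.24, Snorc at -0.19 and -0.18 and Matn1 in Dach1OE at -0.091. With cells past more than 1 gate left out they became 0 and 0, with Hapln1 at -0.50 and -0.36, Snorc at -0.43 and -0.39, Comp in Control at -0.27 and Matn1 in Dach1OE at -0.14. Without cluster 11 they became 3 and 3. The share of all genes was not counted under these settings. Prg4 between libraries turned to -0.084 in upper cells with gates of 20, 4 and 20, to -0.44 in prehypertrophic cells with the Ihh gate ahead, and in hypertrophic cells to 1.32 with the Ihh gate ahead, 1.05 without cells past more than 1 gate and 1.14 without cluster 11. In Dach1OE, Prg4 in hypertrophic over upper cells turned to 0.029 with gates of 20, 4 and 20.

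At resolution 0.8, where 3 clusters with chondrocyte markers were set aside as doublet-like, genes with 90% of their UMIs in chondrocytes went from 8 to 0 in both libraries. The median share of chondrocytes with a UMI went from 91.8% and 91.7% to 95.4% and 95.5% at 2000 UMIs and to 98.2% and 97.8% without thinning. Where no construction of the setting shows it, the cause was not tested. TMM factors of 1.01 and 0.987 left each of the 9 ratios on its side of 1.5-fold. Ratios on few UMIs had wide counting intervals, such as 0.63 to 1.30 for Matn1 in fibroblasts.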

Other observations

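Outside the classes described, Prg4 was at 151 and 105 CPM in metaphyseal stromal cells of Control and Dach1OE, where 1.08% and 0.967% of thinned cells had a UMI of it. In that class 1 cell held 697 of 925 Prg4 UMIs in Control and 1 cell held 312 of 570 in Dach1OE. In smooth muscle cells or pericytes it was at 8.85 and 43.2 CPM, with a UMI in 0.548% and 0.773% of thinned cells.

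Between the sexes within a library, Hapln1 in chondrocytes was at 9473 CPM in cells with Xist UMIs and 10914 CPM in cells with Y-linked UMIs of Control, and at 9230 and 10213 CPM in Dach1OE. Matn1 ran the other way, at 1332 and 1253 CPM in Control and 1367 and 1282 CPM in Dach1OE. Mouse and sex cannot be told apart here, and the spread between mice of 1 sex is unknown.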
